A study of Homo sapiens with 6 samples.

Results

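The expression of 9 genes that encode secreted glycoproteins, crosslinking enzymes and a lectin of the extracellular matrix was followed in prostate cancer cells with and without silencing of NEDD9. The genes were FN1, VTN, THBS1, TGFBI, LUM, LOX, LOXL2, LGALS3 and CRISPLD1, taken from the 58735 genes of the deposited count table by their symbols. They were selected on their measured counts in this same contrast, with the difference between the groups already known, so their fold changes are given as a description without a test. The cells were VCaP, a human prostate cancer line that carries the TMPRSS2-ERG fusion. One group was stably infected with an shRNA against NEDD9 (shNEDD9), and the other with a non-targeting shRNA (shNTC). Both were grown in DMEM with 10% foetal bovine serum, without any further treatment. Each group held 3 libraries of total RNA, which the series calls biological triplicates. The number of hairpins and of separate infections is not given in the sources used here, so the p-values given for other genes reflect the spread among 3 libraries a group, and that spread may be technical.

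Matrix glycoproteins are secreted, assemble around the cell and are read by integrins and syndecans on its surface. Fibronectin, vitronectin, thrombospondin and the TGFBI protein are adhesive ligands of this kind, and fibronectin and thrombospondin also serve as extracellular targets and regulators of TGF-beta. Lysyl oxidases oxidise lysines of collagen and elastin, the first step of the covalent crosslinks that stiffen a matrix. NEDD9 encodes a Cas family scaffold of focal adhesions, the intracellular structures that integrins form when they bind such ligands.

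NEDD9 itself (ENSG00000111859) stood at 137, 138 and 136 CPM in the shNEDD9 libraries, against 362, 339 and 365 CPM in the shNTC libraries. CPM are counts scaled to a common library total, with TMM factors. The decrease was 2.62-fold (log2 fold change -1.39, SE 0.04). Total counts per library were 5956486 to 9902002 in shNEDD9 and 3217276 to 7492244 in shNTC, so that a floor of 3 counts equalled 0.303 to 0.504 CPM in shNEDD9 and 0.400 to 0.932 CPM in shNTC. All 13 markers of VCaP and luminal prostate cells, among them KLK3, ERG and KRT8, averaged at least 1 CPM. Between the groups 4 of them were higher and 7 lower (edgeR, adjusted p under 0.05), beside 35.5% and 35.9% of all tested genes. The log2 fold change was 1.75 for KLK3, -0.44 for ERG and -1.43 for KRT8.

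Of the 9 genes, 5 were lower in shNEDD9 (CRISPLD1, VTN, LGALS3, FN1 and THBS1), 2 were higher (LUM and LOX), and 2 had too few counts to pass the filter on low counts (LOXL2 and TGFBI). In the 7 genes that passed, the 3 shNEDD9 libraries did not overlap with the 3 shNTC libraries, and 71.8% of all 13958 tested genes also showed no overlap, with 35.7% higher and 36.1% lower. All 7 were past an adjusted p of 0.05, as were 71.4% of the tested genes (edgeR quasi-likelihood test). LUM and LOX were at least 2-fold higher (LOX not without shNTC replicate 2 or 3), as were 7.67% of the tested genes, and the 5 lower genes at least 2-fold lower, as were 9.22%. Nothing is read from these counts, since this contrast chose the genes. LOX reached the filter's level of 1.43 CPM in 3 shNEDD9 and 2 shNTC libraries, and LGALS3 in 2 shNEDD9 and 3 shNTC libraries, so both owed their place among the tested genes to the group in which they were high.

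**Figure D1:**
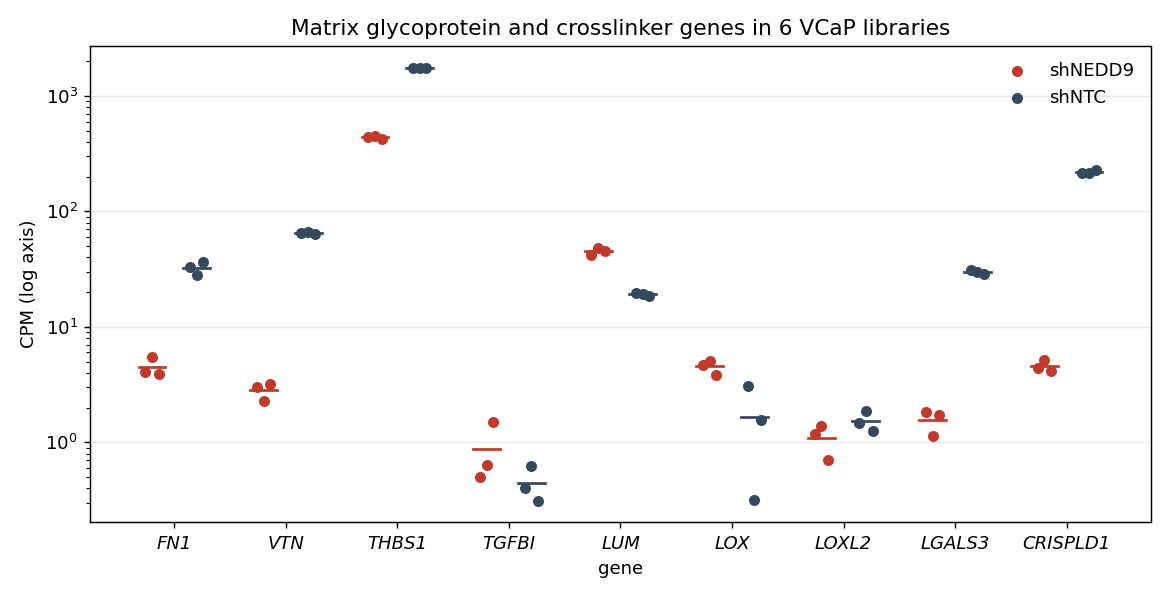
Level in CPM (log axis) of the 9 genes in every library, with shNEDD9 in red left of shNTC in dark blue; each point is 1 library and each bar the mean of 3. CRISPLD1, VTN, LGALS3, FN1 and THBS1 were lower in every shNEDD9 library, LUM and LOX were higher, and the groups overlapped in TGFBI and LOXL2.

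Among the adhesive glycoproteins, FN1, VTN and THBS1 were lower and TGFBI was barely detected. FN1 (ENSG00000115414, GRCh38 chromosome 2, 215360440 to 215436172, minus strand) encodes fibronectin, the dimer that cells draw into fibrils through integrins. Its level was 4.03, 5.47 and 3.93 CPM in shNEDD9, against 32.8, 28.3 and 36.8 CPM in shNTC. Every shNEDD9 library lay below every shNTC library, and the difference was 7.45-fold (log2 fold change -2.90, SE 0.13). A count per gene does not separate the splice forms of fibronectin with and without the extra domains.

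VTN (ENSG00000109072, chromosome 17, 28367276 to 28373091, minus strand) encodes vitronectin, a glycoprotein of plasma and matrix that is made mainly in the liver and binds alpha-v integrins and the plasminogen activator inhibitor. It stood at 3.02, 2.29 and 3.23 CPM in shNEDD9, against 64.5, 66.6 and 63.7 CPM in shNTC, or 22.4-fold lower (log2 fold change -4.49, SE 0.12). The 3 values within each group were close and the groups lay far apart. Only 22 of the tested genes had a more negative log2 fold change.

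THBS1 (ENSG00000137801, chromosome 15, 39581079 to 39599466, plus strand) encodes thrombospondin 1, a matricellular trimer that binds CD36 and CD47 and activates latent TGF-beta. Its counts were by far the highest of the 9 genes in both groups, with 441, 446 and 425 CPM in shNEDD9, against 1761, 1737 and 1753 CPM in shNTC. The difference was 4.01-fold lower (log2 fold change -2.00, SE 0.02), the smallest among the 5 lower genes. THBS1 made up 87.0 ± 0.65% of the summed CPM of the 9 genes in shNEDD9 and 82.6 ± 0.25% in shNTC (SD, n = 3 each).

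TGFBI (ENSG00000120708, chromosome 5, 136028895 to 136063818, plus strand) encodes a TGF-beta-induced protein that links collagens to integrins. It had 3, 5 and 15 counts in the shNEDD9 libraries, against 3, 2 and 2 counts in the shNTC libraries, which is 0.504, 0.636 and 1.51 CPM in shNEDD9 against 0.403, 0.628 and 0.313 CPM in shNTC. The groups overlapped, and 15 of the 23 counts of shNEDD9 lay in replicate 3. Over the summed counts of a group, the level was 0.969 CPM in shNEDD9 (95% exact Poisson interval 0.614 to 1.45, counting error only) and 0.412 CPM in shNTC (0.165 to 0.848).

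The 250 bases upstream of the RefSeq start (GRCh38.p14) are shown for the 4 lower genes matched in the RefSeq promoter table and for LOX, which was higher, so that genes of both directions can be read side by side. The windows are chr2:215436069-215436318 (minus strand, FN1), chr17:28370308-28370557 (minus strand, VTN), chr15:39580829-39581078 (plus strand, THBS1), chr14:55129002-55129251 (plus strand, LGALS3) and chr5:122078260-122078509 (minus strand, LOX, the outermost of 3 starts in the table). Capitals mark matches on either strand to the letters searched, and adjoining or overlapping matches run together. The letters were TATAAA for the TATA box and CCAAT for the CCAAT box. They were GGGCGG for the GC box, TGACGTCA for the cAMP response element and TGANTCA for AP-1. For TEAD factors CATTCC was searched, and for the core of ETS factors CCGGAA.
FN1: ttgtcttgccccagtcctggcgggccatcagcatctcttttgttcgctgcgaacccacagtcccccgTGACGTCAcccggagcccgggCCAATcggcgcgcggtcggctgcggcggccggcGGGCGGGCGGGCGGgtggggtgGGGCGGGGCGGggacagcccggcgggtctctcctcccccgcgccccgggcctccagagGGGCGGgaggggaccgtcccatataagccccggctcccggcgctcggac
VTN: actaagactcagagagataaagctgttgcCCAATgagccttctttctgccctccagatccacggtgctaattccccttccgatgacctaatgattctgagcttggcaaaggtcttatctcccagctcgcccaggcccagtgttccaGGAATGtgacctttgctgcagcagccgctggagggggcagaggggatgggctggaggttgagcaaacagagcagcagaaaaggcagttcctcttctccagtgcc
THBS1: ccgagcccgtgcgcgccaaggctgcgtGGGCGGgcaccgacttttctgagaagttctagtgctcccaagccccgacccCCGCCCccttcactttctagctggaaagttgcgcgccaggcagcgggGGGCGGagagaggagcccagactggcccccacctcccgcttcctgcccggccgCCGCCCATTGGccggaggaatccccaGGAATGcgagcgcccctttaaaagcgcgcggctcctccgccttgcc
LGALS3: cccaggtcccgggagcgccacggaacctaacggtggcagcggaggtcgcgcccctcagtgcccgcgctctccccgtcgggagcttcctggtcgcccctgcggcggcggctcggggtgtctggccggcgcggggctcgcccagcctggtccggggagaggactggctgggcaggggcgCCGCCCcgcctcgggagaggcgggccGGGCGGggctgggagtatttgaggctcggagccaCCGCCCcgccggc
LOX: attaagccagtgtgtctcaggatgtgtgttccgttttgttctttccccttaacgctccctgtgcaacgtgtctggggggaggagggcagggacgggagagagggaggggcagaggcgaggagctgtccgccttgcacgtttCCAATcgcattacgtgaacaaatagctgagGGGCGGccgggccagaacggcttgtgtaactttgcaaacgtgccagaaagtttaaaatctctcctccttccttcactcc

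The FN1 window held the 8 letters of the cAMP response element from 183 to 176 bases upstream of the start, a CCAAT match and 6 GC boxes, of which several overlap or adjoin. Among 35116 promoters of the table, 1.65% held the cAMP response element, 32.0% CCAAT and 42.6% the GC box. VTN held a CCAAT and a TEAD match, and the TEAD letters were in 11.9% of promoters. THBS1 held 4 GC boxes, a CCAAT match adjoining one of them and a TEAD match from 46 to 41 bases upstream. LGALS3 held 3 GC boxes, and LOX a CCAAT match and a GC box. None of the 5 windows held the exact letters searched for the TATA box, AP-1 or the ETS core, which were in 10.7%, 6.57% and 14.5% of promoters. Other spellings of these elements were not searched, so their absence is not shown. No set of letters was shared by all 5 windows, and the GC box was in 4 of them. The windows of THBS1, LGALS3 and FN1 had a GC content of 69.6%, 78.8% and 76.4%, and those of VTN and LOX 54.8% and 55.2%, beside a median of 58.0% over all promoters of the table.

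LUM, the only proteoglycan of the 9, was higher in shNEDD9. It encodes lumican (ENSG00000139329, chromosome 12, 91102629 to 91111831, minus strand), a small leucine-rich proteoglycan that spaces collagen fibrils in cornea, skin and stroma. Its level was 41.8, 48.1 and 45.8 CPM in shNEDD9, against 19.8, 19.2 and 18.6 CPM in shNTC. Each shNEDD9 library held more than any shNTC library, and the difference was 2.37-fold (log2 fold change 1.24, SE 0.09).

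The crosslinking enzymes had few counts. LOX (ENSG00000113083, chromosome 5, 122063195 to 122078360, minus strand) encodes lysyl oxidase and had 28, 40 and 38 counts in shNEDD9, against 23, 1 and 10 counts in shNTC. In CPM this was 4.70, 5.09 and 3.83 in shNEDD9 and 3.09, 0.314 and 1.57 in shNTC. The shNEDD9 values were close to each other, whereas the shNTC values lay far apart, with a single count in replicate 2. The difference was 2.23-fold (log2 fold change 1.16, SE 0.28). It was 3.85-fold without shNTC replicate 1, 1.87-fold without shNTC replicate 2 and 1.97-fold without shNTC replicate 3, so that its place above 2-fold depended on single shNTC libraries.

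LOXL2 (ENSG00000134013, chromosome 8, 23297189 to 23425328, minus strand) encodes a lysyl oxidase of the same family that acts on type IV collagen. It had 7, 11 and 7 counts in shNEDD9, against 11, 6 and 8 counts in shNTC, or 1.17, 1.40 and 0.706 CPM in shNEDD9 against 1.48, 1.89 and 1.25 CPM in shNTC. The groups overlapped, and their summed counts were equal at 25. At the depth of each group this was 1.05 CPM in shNEDD9 and 1.47 CPM in shNTC. In a fit without the filter on low counts the log2 fold change was -0.45 (SE 0.44) for LOXL2 and 1.21 (SE 0.64) for TGFBI.

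LGALS3 (ENSG00000131981, chromosome 14, 55124110 to 55145413, plus strand) encodes galectin 3, a lectin that binds beta-galactosides on matrix glycoproteins and integrins and is also found in cytosol and nucleus. It stood at 1.85, 1.14 and 1.71 CPM in shNEDD9, against 31.3, 30.2 and 28.8 CPM in shNTC. The shNEDD9 libraries held 37 counts together and the shNTC libraries 513. The difference was 19.1-fold lower (log2 fold change -4.26, SE 0.17), and the groups lay far apart.

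CRISPLD1 (ENSG00000121005, chromosome 8, 74984515 to 75034558, plus strand) encodes a secreted protein with a CAP domain and LCCL domains. It had the lowest log2 fold change of the 9 genes, with 4.36, 5.21 and 4.13 CPM in shNEDD9, against 217, 214 and 226 CPM in shNTC. This was 48.1-fold lower (log2 fold change -5.59, SE 0.08), and 6 tested genes had a more negative value. Across all 13958 tested genes, 3.61% were called with a change of at least 4-fold, a size that CRISPLD1, VTN, LGALS3, FN1 and THBS1 reached. THBS1 did not reach it under every alternative, with 3.93-fold without shNEDD9 replicate 3.

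The order of the genes by level was not the same in the groups when levels were set per length, as CPM per kilobase of annotated exon. In shNEDD9, THBS1 came first at 47.7 ± 1.19, LUM followed at 15.0 ± 1.06, and all others were at or below 1.17 (VTN). In shNTC, THBS1 stood at 191 ± 1.34 CPM per kilobase, followed by CRISPLD1 at 48.3 ± 1.38, VTN at 26.8 ± 0.62, LGALS3 at 12.6 ± 0.53, LUM at 6.38 ± 0.19 and FN1 at 1.88 ± 0.25 (SD, n = 3 each). LUM was thus the fifth of the genes in shNTC and the second in shNEDD9. In shNEDD9, VTN, CRISPLD1, LOX and LGALS3 each overlapped with their neighbour in this order, as did FN1, LOXL2 and TGFBI, whereas in shNTC the only overlapping neighbours were LOX and LOXL2.

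Set against all annotated protein-coding genes, THBS1 lay above 95.6% of them per length in shNEDD9 and above 99.5% in shNTC. CRISPLD1 lay above 45.6% in shNEDD9 and 96.0% in shNTC, VTN above 46.8% and 91.2%, and LGALS3 above 42.4% and 80.9%, in the same order of groups. LUM moved the other way, with 83.6% in shNEDD9 and 68.6% in shNTC. FN1, which is abundant in stromal cells, was a low gene here in both groups, above 36.9% in shNEDD9 and 50.6% in shNTC. With the longest transcript in place of all annotated exons, FN1 stood at 0.488 CPM per kilobase in shNEDD9 and 3.56 in shNTC, and LOXL2 at 0.434 passed LOX at 0.325 in shNTC. The places of the other 7 genes in shNTC stayed as they were, and in shNEDD9 LGALS3 at 0.90 passed LOX at 0.89.

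**Figure D2:**
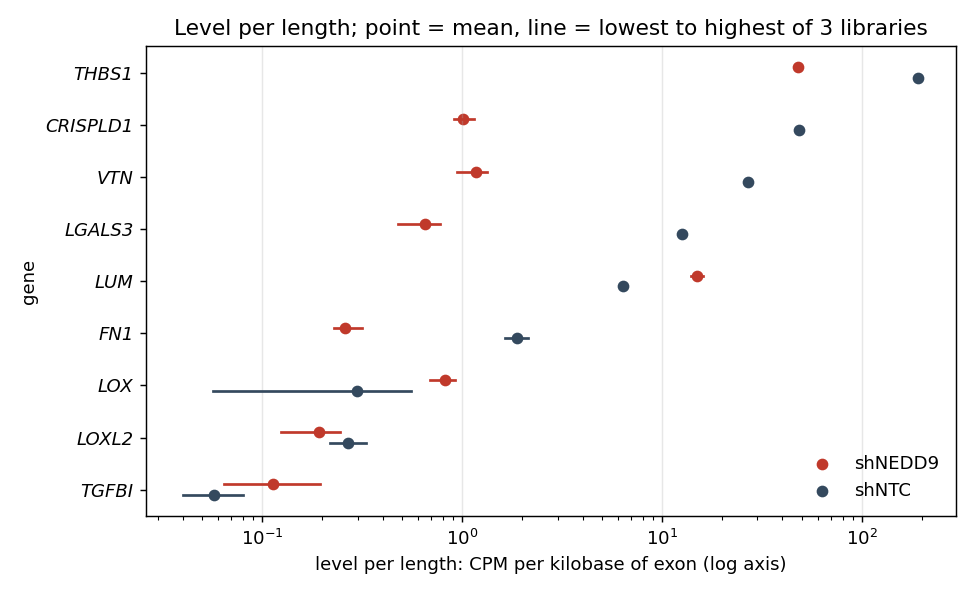
Level per length of the 9 genes (CPM per kilobase of exon, log axis), with shNEDD9 in red above shNTC in dark blue; points are means and lines span the lowest to the highest of 3 libraries. THBS1 was first in both groups, while CRISPLD1, VTN and LGALS3 stood close to LOX in shNEDD9 and above LUM in shNTC.

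Replicates of most genes varied about as much as counting alone allows. The coefficient of variation of CRISPLD1 was 12.4% in shNEDD9 and 2.86% in shNTC, where sampling of counts gives 17.0% and 3.02%. That of VTN was 17.3% in shNEDD9 and 2.30% in shNTC, with 21.5% and 5.59% from counting. FN1 varied by 19.2% in shNEDD9 and 13% in shNTC, with 17.1% and 7.73% from counting. LOX in shNTC stood apart, at 84.0% where counting gives 30.4%, and TGFBI in shNEDD9 varied by 62.0% where counting gives 36.8%. The summed CPM of the 9 genes was 502 ± 12.7 in shNEDD9 and 2119.7 ± 18.9 in shNTC, and without THBS1 65.2 ± 3.95 and 369.8 ± 8.04 (SD, n = 3 each).

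The wider matrix was read from lists of related genes that hold none of the 9. Over all 13958 tested genes, 35.5% were higher and 35.9% lower at an adjusted p under 0.05, with a median log2 fold change of 0.00. Of 95 other matrix glycoproteins 49 were tested, of which 11 rose and 27 fell, with a median of -0.37. NTN4, a netrin of basement membranes, fell to 5.31 ± 0.80 CPM in shNEDD9, against 46.7 ± 1.87 CPM in shNTC. NPNT, which encodes nephronectin, a ligand of integrins in epithelial basement membranes, fell to 10.2 ± 0.25 CPM, against 89.1 ± 6.79 CPM. On the log2 scale, the matrilin gene MATN2 fell by 2.85 (SE 0.16) and SRPX fell by 2.64 (SE 0.16). The weakest of these 4 calls was that of SRPX (adjusted p = 7.36e-58 in edgeR, by Benjamini-Hochberg).

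Relatives of the adhesive ligands were also read out, as a group chosen after their values had been seen. THBS2 fell by 0.52 (SE 0.20) and THBS3 by 0.37 (SE 0.16) on the log2 scale (edgeR adjusted p = 0.0139 and 0.0353). LTBP1 and LTBP3, which hold latent TGF-beta in the matrix, were 2.84-fold and 1.80-fold lower. LTBP2 and LTBP4 had log2 fold changes of -0.37 (SE 0.29) and 0.15 (SE 0.15) and were not called (edgeR adjusted p = 0.247 and 0.346). CTGF fell by 2.63 (SE 0.41), with 12 counts in shNEDD9 and 55 in shNTC, and passed the filter on low counts only through shNTC. Of its relatives, NOV fell by 2.34 (SE 0.15) and CYR61 rose by 0.56 (SE 0.12), while WISP1, WISP2 and WISP3 were not tested.

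Only 6 of 33 other proteoglycan genes were tested, 1 higher and 5 lower, with a median log2 fold change of -1.16. The testican genes SPOCK1, SPOCK2 and SPOCK3 fell by 1.99 (SE 0.06), 2.59 (SE 0.23) and 2.28 (SE 0.29). BGN, which encodes biglycan, a small leucine-rich proteoglycan like lumican, rose to 4.13 ± 0.87 CPM in shNEDD9, against 1.64 ± 0.83 CPM in shNTC (log2 fold change 1.15, SE 0.29, edgeR adjusted p = 0.000137). SPOCK2, SPOCK3 and BGN did not reach the filter's level in all libraries of their lower group. They owed their place among the tested genes to the group in which they were high. DCN, the decorin gene, had 4 counts in each group, a mean of 0.161 CPM in shNEDD9 and 0.239 CPM in shNTC.

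Enzymes that crosslink and mature the matrix went in both directions, with 14 of 29 tested genes higher and 9 lower (38 listed, median log2 fold change 0.16). PLOD2, a lysyl hydroxylase that prepares collagen for crosslinking, rose to 105 ± 3.59 CPM in shNEDD9, against 17.4 ± 0.19 CPM in shNTC (log2 fold change 2.59, SE 0.08). COLGALT2, a collagen galactosyltransferase gene, rose by 2.16 (SE 0.32). P4HA3, a prolyl hydroxylase gene, fell by 2.43 (SE 0.35) and the transglutaminase gene TGM5 by 3.03 (SE 0.46), which had the weakest of these 4 calls (edgeR adjusted p = 4.72e-11). P4HA3 and TGM5 stayed below the filter's level of 1.43 CPM in every shNEDD9 library, and COLGALT2 in shNTC replicates 1 and 3. These genes thus owed their place among the tested genes to the group in which they were high. The remaining lysyl oxidases, named as a family after their values had been seen, were split. LOXL1 fell by 0.84 (SE 0.11), whereas LOXL3 rose by 1.03 (SE 0.21) and LOXL4 by 1.22 (SE 0.28). All 3 were past the threshold, the weakest being LOXL4 (edgeR adjusted p = 2.11e-05).

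The list of other galectins, which also holds the galectin 3 binding protein LGALS3BP, had 4 of 16 genes tested (median log2 fold change -0.26). The 3 tested galectin genes were lower, and the only higher gene was LGALS3BP. LGALS4, a galectin of intestinal epithelium, fell by 2.70 (SE 0.21), while LGALS8 and LGALSL fell by 0.24 (SE 0.06) and 0.28 (SE 0.07). LGALS3BP, which encodes a secreted glycoprotein and no galectin, rose to 310.3 ± 5.77 CPM in shNEDD9, against 176 ± 2.08 CPM in shNTC (log2 fold change 0.82, SE 0.04, edgeR adjusted p = 1.39e-117). LGALS3 and the gene of its binding partner thus stood on opposite sides. LGALS1, the gene of galectin 1, had 12 counts in shNEDD9 and 7 in shNTC, a mean of 0.492 CPM and 0.470 CPM.

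Of 14 other genes of the CAP family, to which CRISPLD1 belongs, 3 were tested. GLIPR1 fell by 2.54 (SE 0.15) and GLIPR2 by 1.20 (SE 0.15), while CRISP3, which encodes a secreted protein of prostate and salivary gland, rose to 447.8 ± 4.92 CPM in shNEDD9, against 254 ± 2.77 CPM in shNTC. The weakest of these calls was that of GLIPR2 (edgeR adjusted p = 1.94e-15), and the median log2 fold change was -1.20. CRISPLD2, the closest relative of CRISPLD1, had 0 counts in every library.

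Receptors of the ligands were mostly lower, with 14 of 20 tested genes lower and 4 higher (25 listed, median log2 fold change -0.92). ITGB6 and ITGB8, beta subunits that pair with the alpha-v subunit, fell by 2.30 (SE 0.18) and 1.61 (SE 0.16). ITGA9 fell by 1.25 (SE 0.36) and TLR4, an innate immune receptor reported to sense fibronectin fragments, by 3.20 (SE 0.22). The weakest of these 4 calls was that of ITGA9 (edgeR adjusted p = 0.00092). ITGA9 stayed below the filter's level in every shNEDD9 library, so it was tested only through shNTC. Receptors of fibronectin and vitronectin chosen after their values had been seen included ITGAV, which fell to 75.1 CPM in shNEDD9, against 150.0 CPM in shNTC. ITGB5 fell by 0.81 (SE 0.04) and ITGB1 by 0.39 (SE 0.04), while ITGA5, the partner of ITGB1 in the classic fibronectin receptor, rose by 0.38 (SE 0.14, edgeR adjusted p = 0.00777). Of the receptors of thrombospondin, LRP1 fell by 1.06 (SE 0.07) and CD47 rose by 0.19 (SE 0.06, edgeR adjusted p = 0.0023). CD36 was not tested, with 26 counts in shNEDD9 and 18 in shNTC, a mean of 1.07 CPM and 1.01 CPM.

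Genes of matrix proteases and their inhibitors were lower in 12 of 19 tested cases and higher in 1 (44 listed, median log2 fold change -1.23). ADAMTS1, a protease of proteoglycans, fell to 94.3 ± 4.26 CPM in shNEDD9, against 766.7 ± 11.6 CPM in shNTC. The interstitial collagenase gene MMP1 fell by 4.55 (SE 0.48) and had 4 counts in shNEDD9, against 74 in shNTC, so it passed the filter only through shNTC. MMP10, a stromelysin gene, fell by 2.14 (SE 0.18) and ADAMTS16 fell by 3.48 (SE 0.48), the weakest of these 4 calls (edgeR adjusted p = 5.84e-13). An SE as large as that of MMP1 goes with few counts in shNEDD9, so ADAMTS16 too was tested only through shNTC.

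**Figure D3:**
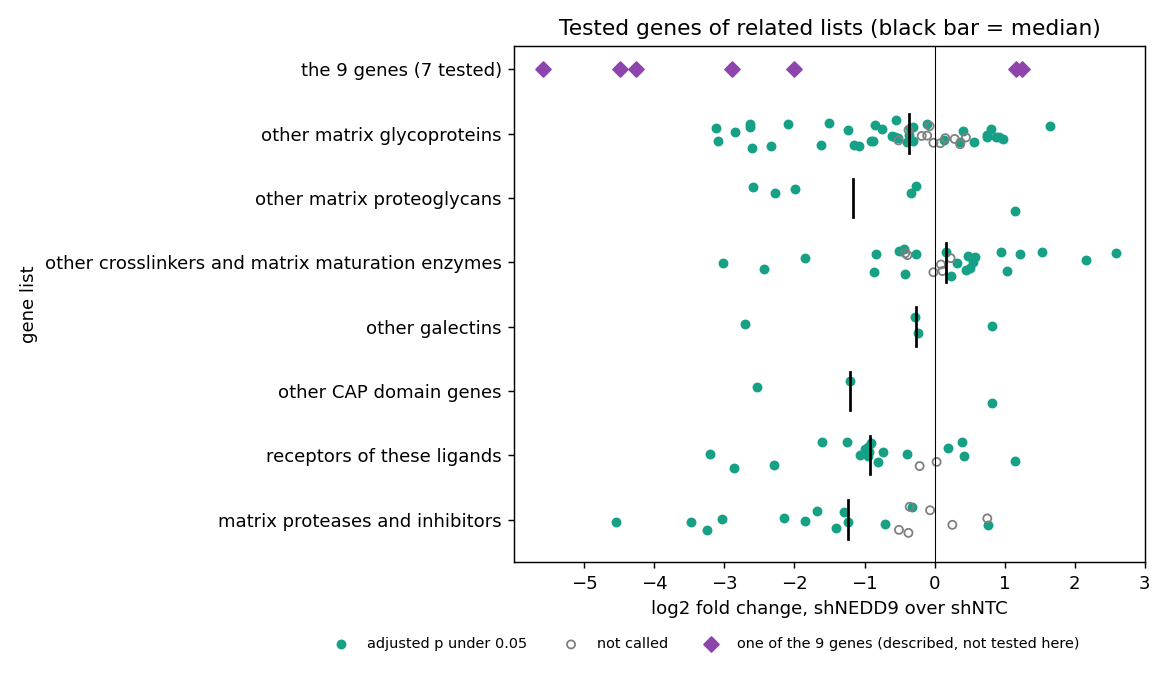
Log2 fold change (shNEDD9 over shNTC) of the tested genes in each list of related genes, with the 7 tested matrix genes as purple diamonds in the top row; filled points passed an adjusted p of 0.05, open points did not, and black bars are medians. The medians lay at -0.37 for glycoproteins, -1.16 for proteoglycans, 0.16 for crosslinking and maturation enzymes, -0.92 for receptors and -1.23 for proteases.

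The 9 genes lie on 7 chromosomes, and their neighbours were called higher and lower in similar numbers. Within 500 kb of the start (the lower coordinate) of 8 of the genes lay 61 tested genes (none for LUM), of which 24 were higher and 18 lower, or 68.9%, beside 71.4% of all tested genes. Their median log2 fold change was 0.02. VTN, which lies within SARM1 on the opposite strand, had 31 tested neighbours, 13 higher and 10 lower, with a median of -0.06. SARM1, which encodes an axonal NADase, rose to 71.6 ± 6.37 CPM in shNEDD9, against 57.8 ± 3.68 CPM in shNTC (edgeR adjusted p = 2.43e-07). SLC46A1, a folate transporter gene whose start lies 27.5 kb from that of VTN, fell by 0.81 (SE 0.08).

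DLGAP5, a mitotic spindle gene whose lower coordinate lies 24.0 kb from that of LGALS3, was higher while LGALS3 was lower. DLGAP5 rose to 72.4 ± 3.18 CPM in shNEDD9, against 25.2 ± 4.05 CPM in shNTC. ATIC, a purine synthesis gene whose lower coordinate lies 48.6 kb from that of FN1, rose by 0.58 (SE 0.05). The nearest tested gene of LOX was SRFBP1, up by 0.43 (SE 0.13), and those of CRISPLD1 were HNF4G, down by 0.39, and the non-coding MIR2052HG, down by 0.63. ENTPD4, which shares 120 exon bases with LOXL2 on the same strand, fell by 0.93 (SE 0.06). Of the 12 nearest genes, the weakest of the 10 calls was that of MAPK1IP1L beside LGALS3 (edgeR adjusted p = 0.0209). R3HCC1, beside LOXL2, and AC037198.1, a transcript within THBS1, were not called (edgeR adjusted p = 0.0891 and 0.0953). These 2 passed the threshold without shNEDD9 replicate 2 (R3HCC1, edgeR adjusted p = 0.0162) and without shNEDD9 replicate 1 (AC037198.1, edgeR adjusted p = 0.0146). With all libraries, AC037198.1 also passed in limma-voom (adjusted p = 0.0359). HNF4G missed it without shNEDD9 replicate 3 (edgeR adjusted p = 0.053), and MAPK1IP1L without shNEDD9 replicate 2 or shNTC replicate 3 (edgeR adjusted p = 0.0994 and 0.0576) and, with all libraries, in DESeq2 (adjusted p = 0.0985).

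FSIP1 overlaps THBS1 on the opposite strand by 448 exon bases and differed from it in direction. It had 43, 57 and 51 counts in shNEDD9, against 6, 2 and 1 counts in shNTC, an 11.7-fold increase (log2 fold change 3.55, SE 0.35, edgeR adjusted p = 1.82e-23). FSIP1 passed the filter on low counts only through shNEDD9. The kit keeps the strand of the RNA, but the strand setting of the counting is not given in the sources used here. The counts of FSIP1 were far below those of THBS1 in both groups. LOX shares 138 exon bases with SRFBP1 on the opposite strand, and the antisense transcripts at LOXL2, CRISPLD1 and THBS1 had at most 2 counts in any library.

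**Figure D4:**
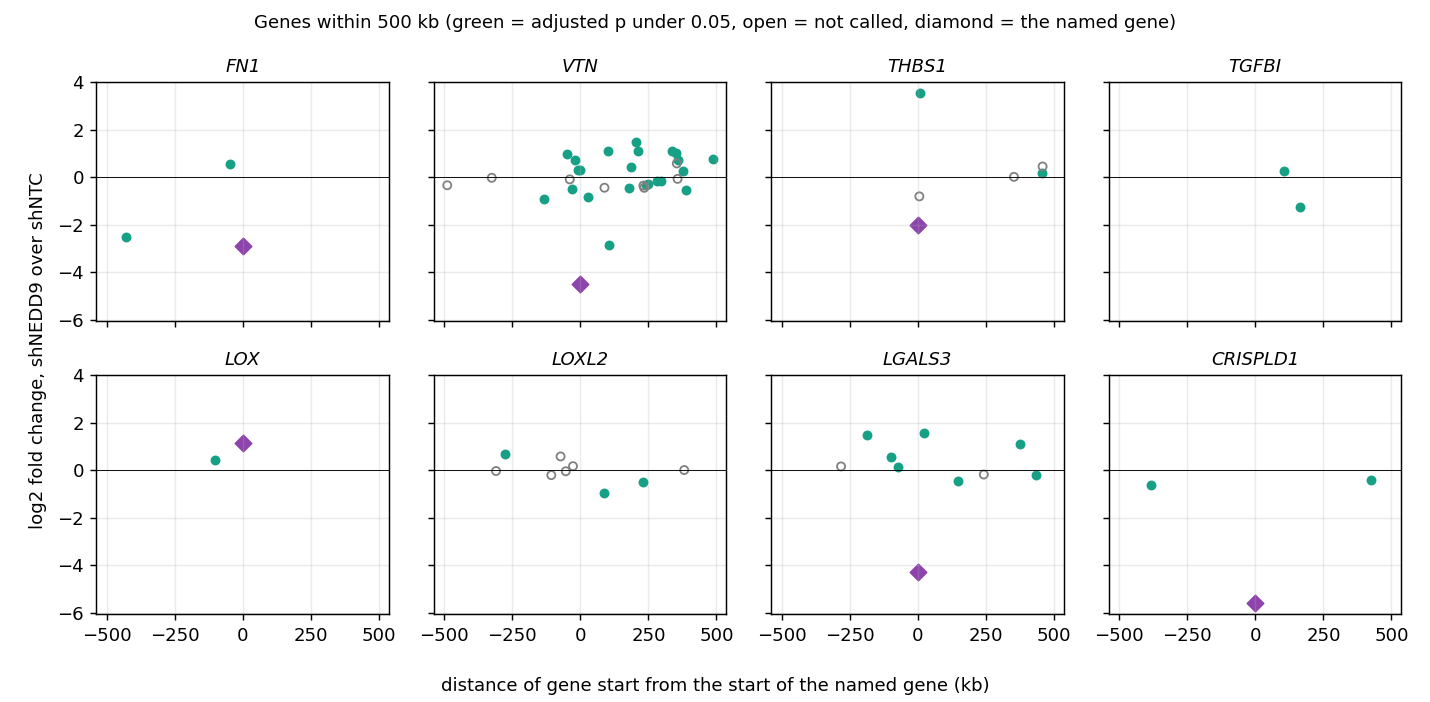
Log2 fold change (shNEDD9 over shNTC) of tested genes within 500 kb against the distance of their start from that of the named gene in kb, 1 panel for each of 8 genes; green points passed an adjusted p of 0.05, open points did not, and diamonds are the named genes where they were tested. Neighbours of VTN, LGALS3, FN1 and THBS1 lay on both sides of 0. Each of these 4 genes was lower than all of its neighbours shown, but nothing is read from this, since this contrast chose the genes.

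For each tested gene, the genes of most similar pattern over the 6 libraries were sought among 12541 protein-coding genes averaging 1 CPM or more. Log2 CPM, with a prior count of 2 that narrows differences at low counts, were centred on each gene's mean. Their Euclidean distance was the measure. For THBS1 the closest genes were TXNL1 (distance 0.09) and SLC45A3 (0.10), for LUM TICRR (0.10) and PER2 (0.11), and for FN1 HOPX (0.25) and CDKN2B (0.32). VTN was closest to COL17A1 (0.35) and VSTM2A (0.42), and LGALS3 to PLA2G2A (0.41) and REG4 (0.44). For LOX, BBC3 was further away, at 0.74. CRISPLD1 was closest to SULT1C4 (0.30) and next to AGBL1 (0.73), which had 0 counts in every shNEDD9 library and 8.95 ± 1.20 CPM in shNTC. COL17A1, VSTM2A, SULT1C4 and AGBL1 averaged less than the filter's level of 1.43 CPM in shNEDD9, so they were tested only through shNTC. These distances describe 6 libraries in 2 groups, so that they mostly follow the difference between the groups.

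Markers of other cell types were set beside these results, since fibroblasts make much of the fibronectin, lumican and lysyl oxidase of a tissue and the liver most vitronectin. In bulk RNA, fewer cells of a type and less RNA per cell cannot be told apart. Of 15 fibroblast and stromal markers, FAP and THY1 were at 0 in every library, and DCN, PDGFRA and POSTN had at most 8 counts each. At least 1 CPM was averaged by 5. Of the 3 tested, FBLN1 was higher, at 8.61 CPM in shNEDD9 and 5.27 CPM in shNTC. COL1A1 was lower, at 4.63 CPM in shNEDD9 and 7.23 CPM in shNTC, as was TAGLN, at 3.90 CPM and 5.70 CPM. The sum of the 15 was 20.3 to 22.3 CPM in shNEDD9 and 19.0 to 29.8 CPM in shNTC. Of 11 macrophage and leukocyte markers 2 averaged at least 1 CPM, and the sum was 5.87 to 7.06 CPM in shNEDD9 and 19.2 to 26.1 CPM in shNTC, where LYZ alone averaged 16.8 CPM, with CD68, TYROBP and CD3E at 0. Of 7 hepatocyte markers, APOA1, APOB, FGB and TF had at most 9 counts each, and of the 3 tested 1 was higher and 2 were lower. ALB stood at 174 CPM in shNEDD9 and 136 CPM in shNTC, TTR at 23.3 CPM in shNEDD9 and 50.6 CPM in shNTC, and SERPINA1 at 2.29 CPM in shNEDD9 and 4.46 CPM in shNTC. TTR and SERPINA1 thus had the direction of VTN, and ALB, the most abundant, had the opposite one. The sum of the 7, most of it ALB, was 195 to 203 CPM in shNEDD9 and 181 to 199.8 CPM in shNTC. Endothelial markers summed to 9.58 to 11.1 CPM in shNEDD9 and 10.4 to 11.7 CPM in shNTC. Their part in the levels of the 9 genes was not tested.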

How the data were processed

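RNA of VCaP cells with shNEDD9 or shNTC (3 libraries each) was made into stranded total RNA libraries with a TruSeq kit, per the labels. The deposited values are raw counts per gene. Per the submitters' processing notes, STAR 2.5.3a, Subread 1.6.2 and featureCounts were used, beside cutadapt 1.9 and FastQC 0.11.5, and hg19 and GRCh38 are named as builds without their roles. The annotation and strand setting are not given in the sources used here. All 58735 identifiers occur in GENCODE 29 (GRCh38), which gave symbols, coordinates and exon lengths; 1 empty row was left out.

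Counts were tested with edgeR 4.0.16 (R 4.3.3; TMM, filterByExpr with a minimum count of 10, robust quasi-likelihood F test, Benjamini-Hochberg adjustment over 13958 genes, threshold 0.05). SE is the unmoderated log2 fold change over the root of F. The fit was checked on simulated counts. DESeq2 1.42.0 and limma-voom (3.58.1), other scalings and filters, a replicate block and leaving out each library were alternatives. No pair of replicates held the same counts deposited again (chi-square divided by its degrees of freedom 1.14 to 1.20). Counting alone gives about 1, so these values cannot tell separate cultures from repeated libraries of the same RNA. The common biological coefficient of variation of the fit was 1.65%.

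The 9 genes and all lists were chosen with earlier results of these data known. Named from each list were up to 4 called genes of largest absolute log2 fold change at a mean of at least 1 CPM, for each of the 9 the nearest tested genes within 500 kb, overlapping genes and the 2 of most similar pattern; others are marked as chosen after their values were seen. One gene that the rule names is not reported here. Promoter sequences are from RefSeq (GRCh38.p14), in which 6 of the 9 genes were matched.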

Additional observations from a re-analysis of the deposited data

How the results depend on the processing

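Over 14 alternatives, 4244 to 5111 genes were called higher and 4311 to 5061 lower, beside 4950 and 5014 as reported. None of the 7 tested matrix genes changed direction: log2 fold changes ranged from -5.69 to -5.49 for CRISPLD1, -4.62 to -4.35 for VTN, -4.36 to -4.08 for LGALS3, -3.06 to -2.77 for FN1, -2.01 to -1.98 for THBS1, 1.21 to 1.29 for LUM and 0.90 to 1.95 for LOX. The value of LOX moved most with the shNTC libraries, to 1.95 without replicate 1, 0.90 without replicate 2 and 0.98 without replicate 3. Without a count filter, 2 proteoglycan genes and 2 CAP domain genes were called higher, against 1 each as reported. When 1 library was left out, 1 to 2 CAP domain genes and 1 to 2 protease genes were called higher; the pairs came without shNTC replicate 2 or 3 and without shNEDD9 replicate 2. Of 53 other named genes, 49 kept their direction and side of the threshold under every alternative. Deviations of same-numbered libraries had correlations of -0.02, 0.01 and 0.05 over 10746 genes. The spread among replicates was near that of counting, so these values cannot show whether same-numbered libraries were paired. With the replicate block, 4881 genes were called higher and 4953 lower. The depth limits TGFBI and LOXL2, with 30 and 50 counts over the 6 libraries.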
